A study of Mus musculus with 380 samples.

Results

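Newborn thymic epithelium was profiled by single-cell RNA sequencing with CEL-Seq2 either after a sort for cells that bind the lectin UEA-1 or without that sort, and the comparison below sets the UEA-1+ libraries against the unsorted ones. It covers every wild-type library of postnatal day 0 (P0), chosen by label alone: 24 of the 380 libraries of the series, 8 of them UEA-1+ and 16 unsorted. The labels give female C57BL/6 mice, genotype WT, P0 and thymus for both groups, with no treatment, and a library held the cells of 96 wells. According to the study's methods all were EpCAM+ CD45- epithelial cells, and P0 belonged to the lineage-barcoded experiments. Mice of those experiments carried a hU6-sgRNA against Hprt, Foxn1-cre and a Cre-dependent Cas9-EYFP allele in both groups, so that cells with a Foxn1 history bear scars in Hprt, which was left out here. Per library, the 96 columns with most of the transcripts were used. A cell needed 3000 or more transcripts, and cells were summed per library. In 1 UEA-1+ library neither set of 96 columns held 80% of the transcripts and no well reached 3000, and it was left out, which left 1804 cells, 1357 of them unsorted in 16 libraries and the others UEA-1+ in 7 libraries. The labels name no animal, and the study lists the 24 libraries as its P0 time point without a number of mice. All may come from a single animal, so libraries served as technical replicates, and each p-value measured only the spread between libraries.

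Thymic epithelial cells (TECs) form the cortex, where thymocytes are committed and positively selected, and the medulla, where developing T cells meet self-antigens. Cortical TECs make thymus-specific proteases and chemokines that attract and retain progenitors. Medullary TECs (mTECs) transcribe genes of many other tissues, partly under the control of the autoimmune regulator Aire, and present the peptides on MHC molecules. UEA-1 (Ulex europaeus agglutinin 1) binds fucosylated glycans that mTECs display, and is commonly used to sort them.

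The stretch before the transcription start is shown for 4 genes named below, Psmb11 and Cxcl12 as cortical genes and Aire and Ccl22 as medullary ones. Each line gives 250 bases that end just before the start, 5′ to 3′ on the strand of the gene, taken from RefSeq on GRCm38.p6. Capitals mark the pentamer GACGC or its reverse complement GCGTC, the core of the sequence that Foxn1 is known to bind.
Psmb11: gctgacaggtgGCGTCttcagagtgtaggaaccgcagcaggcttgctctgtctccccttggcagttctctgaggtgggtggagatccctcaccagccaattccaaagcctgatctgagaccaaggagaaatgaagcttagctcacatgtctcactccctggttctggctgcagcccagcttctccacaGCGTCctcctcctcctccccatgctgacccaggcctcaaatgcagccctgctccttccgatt
Cxcl12: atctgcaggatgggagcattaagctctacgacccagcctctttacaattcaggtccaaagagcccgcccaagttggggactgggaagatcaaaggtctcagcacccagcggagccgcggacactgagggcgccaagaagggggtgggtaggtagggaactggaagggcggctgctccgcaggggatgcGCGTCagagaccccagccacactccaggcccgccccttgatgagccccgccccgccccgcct
Aire: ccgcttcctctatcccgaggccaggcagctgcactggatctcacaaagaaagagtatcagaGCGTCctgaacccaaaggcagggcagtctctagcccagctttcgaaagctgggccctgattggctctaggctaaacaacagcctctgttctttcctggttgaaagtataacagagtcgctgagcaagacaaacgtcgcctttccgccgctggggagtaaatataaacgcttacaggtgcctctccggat
Ccl22: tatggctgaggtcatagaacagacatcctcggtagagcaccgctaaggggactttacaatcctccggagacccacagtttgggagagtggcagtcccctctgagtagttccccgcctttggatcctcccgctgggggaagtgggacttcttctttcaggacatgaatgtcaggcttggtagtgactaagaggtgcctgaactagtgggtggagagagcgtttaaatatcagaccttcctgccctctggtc

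The Psmb11 stretch lies at chr14:54625060-54625309 on the plus strand and holds 2 matches. The Cxcl12 stretch at chr6:117168285-117168534 on the plus strand and the Aire stretch at chr10:78043611-78043860 on the minus strand hold 1 each. The Ccl22 stretch at chr8:94745434-94745683 on the plus strand holds 0. That of Fezf2, a medullary gene whose stretch is not shown, holds 1. Of all 32851 such stretches in the reference table, 22.6% held the pentamer on either strand, against 6 of 17 stretches for the 16 matched genes of the cortical list used below and 6 of 15 for the 12 matched genes of the Aire-stage list and 1 of 12 for the 11 matched genes of the list of medullary chemokines. These matches describe the letters and were not tested for binding.

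The UEA-1+ libraries held 783666 to 1136630 transcripts in 55 to 71 cells each, and the unsorted libraries 790829 to 1890483 in 76 to 89 cells. The median cell of a library had 10991 to 15441 transcripts in the UEA-1+ group and 8305 to 19977 in the unsorted group, so that depth per cell overlapped. In all, 66.5% of the UEA-1+ wells and 88.3% of the unsorted wells reached 3000 transcripts. Mitochondrial transcripts made up 11.2 to 15.1% and 9.76 to 13.4%, respectively. No 2 of the 1804 cells had the same counts. Every pair of libraries of a group differed by more than the counting noise of molecules. Whether the sampling of different cells accounts for that was not tested. Levels are given as CPM, a gene's transcripts scaled to a common library sum, without mitochondrial transcripts, while log2 fold changes come from the fit after TMM scaling.

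In the fit over all cells kept, the profiles of sorted and unsorted newborn TECs differed in most of the genes tested. Of 10305 genes, 3064 were higher in the UEA-1+ libraries (29.7%) and 2809 were lower (27.3%) in edgeR's quasi-likelihood test at an adjusted p under 0.05. At least 2-fold differences were called for 1416 genes higher (13.7%) and 1026 lower (9.96%). For 999 genes (9.69%) every UEA-1+ library exceeded every unsorted one, and for 1251 (12.1%) every UEA-1+ library lay below. Scaling to library totals alone shifted the median of all genes from 0.02 to -0.105 (log2) and turned the split to 2484 higher and 3505 lower (41.5% of calls higher in place of 52.2%). Without cells holding a transcript of the myeloid list below, fewer genes were called, 1436 higher and 1531 lower of 8859. In sums per library, fewer cells of a type and less RNA per cell cannot be told apart.

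Aire (chr10:78030022-78043610, GRCm38.p6) was at 599.9 to 790.7 CPM in the UEA-1+ libraries, with a median of 624.2, and at 4.34 to 89.7 CPM in the unsorted libraries, with a median of 23.2. Krt5 (chr15:101707069-101712905), a keratin of medullary and other basal epithelium, ranged from 914 to 1370.1 CPM around a median of 1185 against 289 to 656.3 CPM around 421.9. Both marked every sorted library, with no overlap between the groups. The difference was a log2 fold change of 4.88 ± 0.27 (SE; edgeR adjusted p = 2.07e-15) for Aire and of 1.51 ± 0.12 (edgeR adjusted p = 7.82e-12) for Krt5. On the cortical side, Psmb11 (chr14:54625310-54629556), the catalytic subunit of the thymoproteasome, was at 12.8 to 115.2 CPM in the sorted libraries and 815 to 1402 CPM in the unsorted ones. Prss16 (chr13:22002176-22009741), a serine protease of cortical TECs, was at 64.7 to 422.4 CPM against 4089.6 to 5886 CPM. These genes fell by 4.17 and 4.28 on the log2 scale (edgeR adjusted p = 7.83e-15 and 5e-15), again with no library of one group inside the range of the other.

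**Figure D1:**
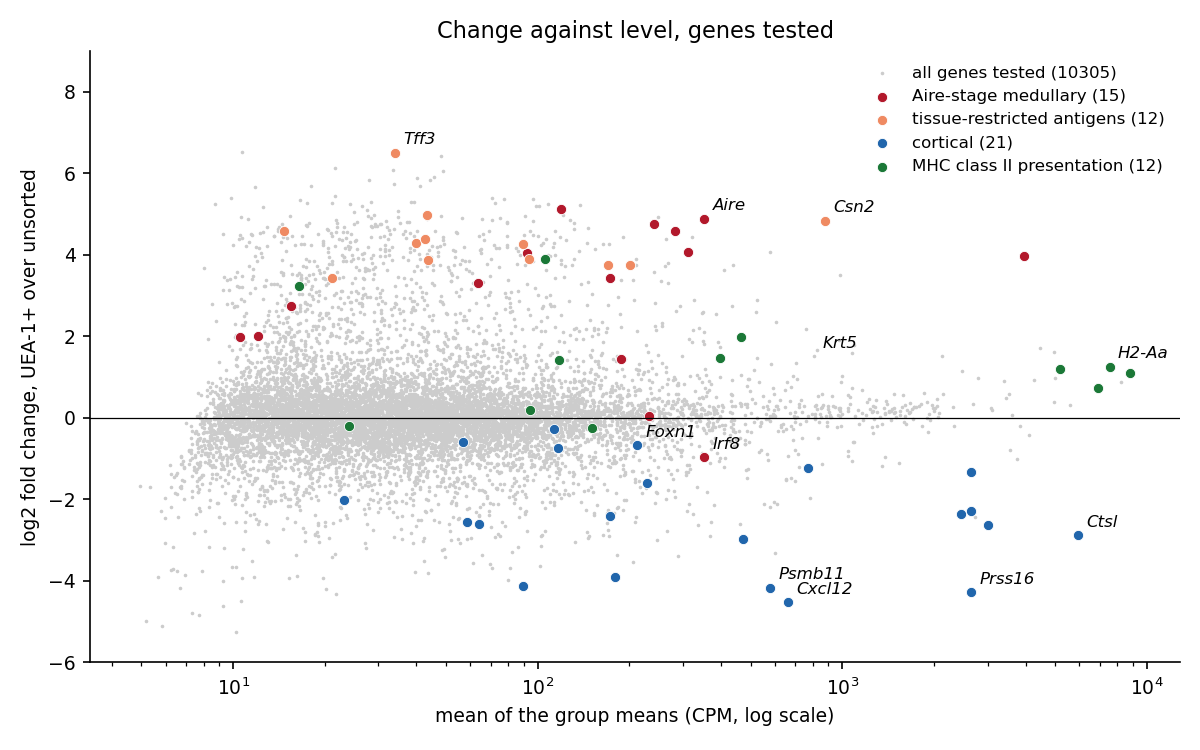
Log2 fold change of UEA-1+ over unsorted libraries (vertical axis) against the mean of the group means in CPM (horizontal log axis) for the 10305 genes tested, each a point, with members of 4 gene lists coloured. All 21 cortical genes lie below 0, and of the 15 Aire-stage genes Irf8, at -0.97, is the one below 0.

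Counted cell by cell, most sorted cells held more medullary than cortical transcripts and nearly all unsorted cells held fewer. A cell was scored by the share of its transcripts from a list of 17 medullary genes among those from that list and a list of 11 cortical genes. Of the 15 medullary genes tested in the fit, 14 were higher and 1 was lower, and all 11 cortical genes were lower. Over all genes 29.7% were higher and 27.3% lower. More medullary than cortical transcripts were held by 82.9% ± 6.4 of cells in the UEA-1+ libraries (SD, n = 7; 71.8 to 90.9%) and by 1.68% ± 1.35 in the unsorted libraries (SD, n = 16; 0 to 4.88%). The difference of 81.3 percentage points had p = 8.16e-06 in an exact two-sided permutation test over libraries, the smallest p this design can give. Libraries within a block of 4 consecutive titles were more alike than those of other blocks. The median chi-square per gene was 2.65 against 3.55 for unsorted and 4.53 against 5.09 for UEA-1+ libraries. No block held libraries of both groups, so that block and sort cannot be told apart. The tests over libraries, those of edgeR included, took libraries as independent. With libraries summed by such blocks, the difference was 80.6 points for these shares and 48.6 points for the Aire shares given below, each with exact permutation p = 0.133, the smallest that the sums allow. A sort with UEA-1 is meant to select mTECs, and the lists were chosen with earlier results of these data known. The shares and their tests are therefore a description, and their cause was not tested.

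The 2 distributions met in the middle. Of the sorted cells, 42.3% had over 80% medullary transcripts, 15 (3.36%) had under 20%, and 70 (15.7%) lay between 40 and 60%, near the dividing line. Of the 1357 unsorted cells, 1256 (92.6%) had under 20% and 1 had over 80%. The median cell had 76.9% medullary transcripts after the sort and 7.61% without it. The classes are ranges of a score and not cell types.

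**Figure D2:**
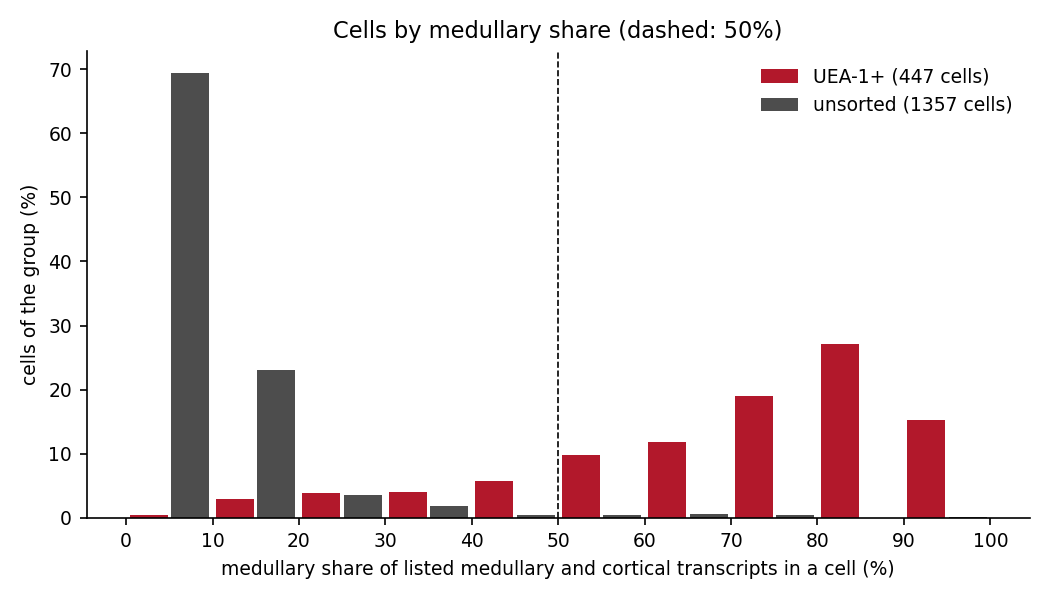
Share of cells in each group (vertical axis, %) by the medullary share of a cell's listed transcripts (horizontal axis, %, in steps of 10), for the UEA-1+ cells and the 1357 unsorted cells. Unsorted cells pile up at the left, with 92.6% under 20%, while 82.8% of the UEA-1+ cells lie to the right of the dashed line at 50%.

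Aire transcripts were spread over the sorted cells. With every cell thinned to 2000 molecular barcodes, which 12 sorted cells and 1 unsorted cell were too shallow for, Aire was found in 51.5% ± 2.1 of the cells of a UEA-1+ library (SD, n = 7; 48.5 to 54.1%). It was found in 2.68% ± 1.71 of those of an unsorted library (SD, n = 16; 0 to 5.19%), a difference of 48.8 points with the same exact permutation p = 8.16e-06. Without thinning, 74.3% of sorted and 7.0% of unsorted cells had an Aire transcript, at median depths of 13210 and 12144 transcripts. Among unsorted cells, Aire was found in 43.5% of the 23 that were mostly medullary and in 1.95% of the 1333 that were not. Whether the latter share is background was not tested. Among sorted cells it was found in 55.3% of the 360 mostly medullary cells and in 33.3% of the other 75. The 10 sorted cells richest in Aire held 13.2% of its transcripts.

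Genes of the Aire-expressing stage rose as a group. Of the 18 listed, 15 passed the filter on low counts, of which 13 rose, all at least 2-fold, 1 fell and 1 was not called. Over all genes 29.7% rose, 13.7% at least 2-fold, and 27.3% fell. The listed genes had a median log2 fold change of 3.43, against 0.02 over all genes. Their summed level was 9799.8 to 12502 CPM in the UEA-1+ libraries and 1164 to 2639 CPM in the unsorted ones. With no filter, 16 of 18 were higher, against 30.7% of the 23854 genes with a count. Since a member that passed only through the sorted libraries had to differ, the counts among those that passed are a description, here and for the lists below.

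Fezf2, a zinc-finger regulator of self-antigen expression that acts beside Aire, was at 424 to 767 CPM against 12.1 to 93.03 CPM, a log2 fold change of 4.07 ± 0.25. Spib, an ETS factor of mature mTECs, was at 215 to 408 CPM against 19.9 to 60.8 CPM (log2 fold change 3.43), and Cdx1, a homeobox gene of the intestine, at 204.5 to 263.4 CPM against 0.87 to 18.2 CPM (5.13). All 3 transcription factors separated the groups completely (edgeR adjusted p = 1.51e-14, 1.34e-17 and 1.19e-17).

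Tnfrsf11a, which encodes RANK, the receptor that drives mTEC maturation, was at 71.6 to 136.8 CPM against 2.75 to 24.3 CPM (log2 fold change 3.31). Cd40, another receptor of that kind, was at a median of 259.8 CPM against 108.5 CPM (1.45), and Icosl, a ligand of the T cell costimulator Icos, at 120.3 to 217.7 CPM against 4.04 to 24.3 CPM (4.04). Each rose (largest edgeR adjusted p = 1.41e-14) without overlap. Cd80 and Cd86, the ligands of CD28, were too low for the filter, at means of 5.81 and 18.98 CPM against 0.28 and 0.57 CPM.

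Srgn, the proteoglycan serglycin of secretory granules, was at 6194 to 8484 CPM around 7501 CPM against 242 to 1420.0 CPM around 414 CPM. It rose by 3.97 ± 0.26 (log2; edgeR adjusted p = 1.13e-13), and after thinning it was found in 99.8% of sorted cells against 44.9% of unsorted cells. Calcb, a calcitonin-related peptide, and Cd52, a small surface glycoprotein of leukocytes, rose by 4.74 and 4.57. Irf8, an interferon regulatory factor, was the member that fell, at 180.3 to 273 CPM against 380.1 to 602 CPM (log2 fold change -0.97 ± 0.09, edgeR adjusted p = 1.36e-10).

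Cortical genes showed the reverse, with no exception in the list. All 21 were tested and all 21 fell, 17 of them at least 2-fold and 19 with no overlap between libraries, against 27.3%, 9.96% and 12.1% over all genes, at a median log2 fold change of -2.41. Their sum was 4347 to 8682 CPM after the sort and 32626 to 44779 CPM without it. The falls differed widely in size, up to 4.53 on the log2 scale.

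Genes for recruiting and keeping thymocytes fell by unequal amounts, with Cxcl12 the deepest of the list. Cxcl12, a chemokine that attracts progenitors, was at 19.6 to 80.4 CPM around 44.9 CPM in the sorted libraries against 971 to 1472 CPM around 1255 CPM, a log2 fold change of -4.53 ± 0.15 (edgeR adjusted p = 9.22e-20). Ccl25, a second progenitor chemokine, was at 376 to 1291 CPM against 2769 to 5165 CPM (-2.35). Dll4, the Notch ligand that commits progenitors to the T lineage, was at 11.2 to 27.03 CPM against 67.9 to 134.8 CPM (-2.55), and Kitl, the ligand of the receptor Kit, at 8.95 to 26.7 CPM against 87.6 to 144.5 CPM (-2.60). Il7, the cytokine for thymocyte survival, fell less, at 49.6 to 175.5 CPM against 287.2 to 394 CPM (-1.60). None of these ranges overlapped.

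Ctsl, cathepsin L for the processing of class II peptides in the cortex, was at 471 to 1859.8 CPM against 8186 to 12473 CPM (log2 fold change -2.89 ± 0.18, edgeR adjusted p = 1.47e-14). Ly75, the endocytic receptor CD205, fell by 3.89, and Tbata by 2.62. The keratins of the cortex fell less, Krt8 from a mean of 3895 CPM without the sort to 1390.2 CPM after it (-1.32) and Krt18 from 4478 CPM to 827 CPM (-2.28). Of the transcription factors, Pax1 fell by 2.97 and Pax9 by 0.75. Foxn1, the master regulator of TECs, was at 97.8 to 199 CPM against 224 to 353.5 CPM, a log2 fold change of -0.67 ± 0.12 (edgeR adjusted p = 9.92e-06). Eya1 fell by 0.60, with overlapping libraries.

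**Figure D3:**
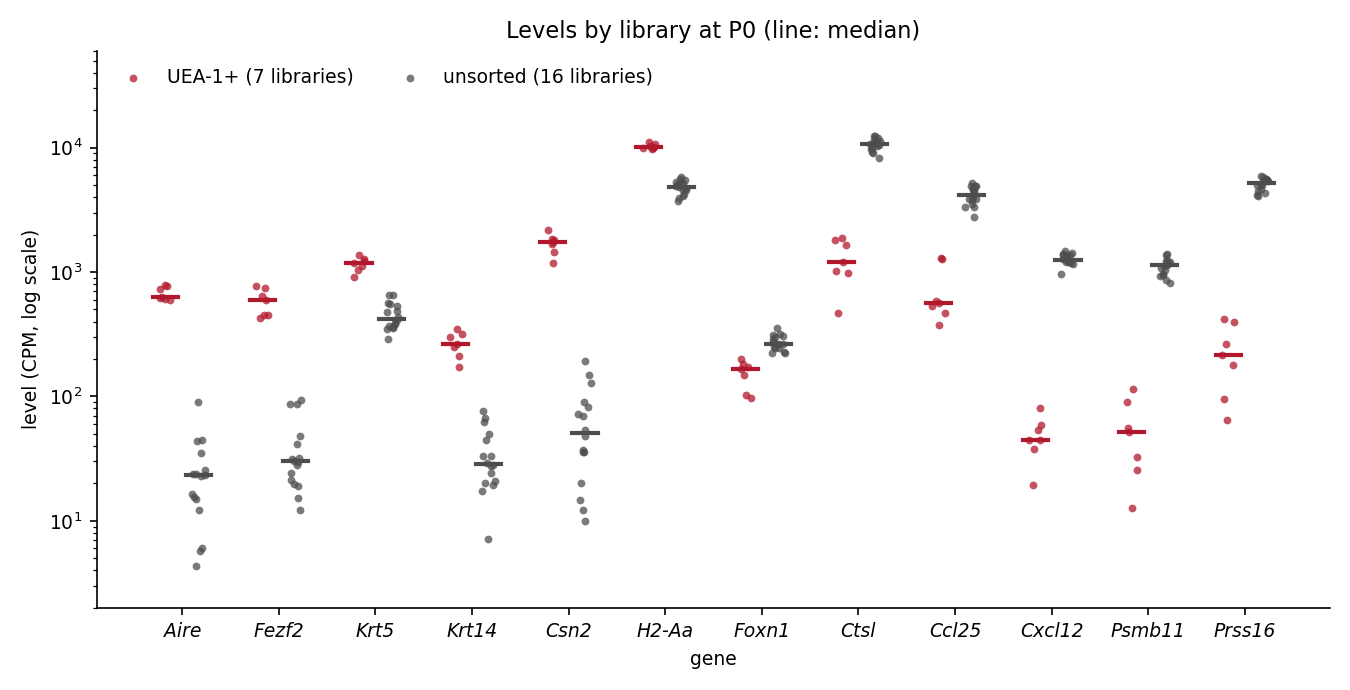
Level in each library (vertical log axis, CPM) of 12 genes named in the text (horizontal axis), with a point per library for 7 UEA-1+ and 16 unsorted libraries and a line at the median of each group. The groups are separate for all 12 genes, from a log2 fold change of -4.53 for Cxcl12 to 4.88 for Aire.

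The keratins and adhesion molecules of medullary and basal epithelium were split. Of 20 genes, 14 rose (9 at least 2-fold), 5 fell (4 at least 2-fold) and 1 was not called, where 29.7% of all genes rose (13.7% at least 2-fold) and 27.3% fell (9.96%), with a median log2 fold change of 0.81, and the sums overlapped. Krt14, the partner of Krt5, was at a median of 263.2 CPM against 28.66 CPM (log2 fold change 3.03 ± 0.23, edgeR adjusted p = 1.23e-12). The tight-junction claudins Cldn3, Cldn4 and Cldn7 rose by 3.96, 3.85 and 4.58 on the log2 scale, and Ly6d, a surface protein of stratified epithelium, by 4.46. Epcam, used for the sort of both groups, rose by 0.96, from a mean of 206.9 CPM to 359.5 CPM.

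The 5 genes of the list that fell included Trp63, Dsp, Lamb3 and Krt7. Trp63, the p63 transcription factor of epithelial progenitors, was at 40.6 to 108.1 CPM against 208.5 to 303.1 CPM (log2 fold change -1.64 ± 0.12, edgeR adjusted p = 1.23e-12). Dsp, the desmosomal desmoplakin, fell by 1.48 and Lamb3, a laminin chain of the basement membrane, by 1.53. Krt7, a keratin of simple epithelium, fell by 1.11. All 4 separated the groups completely. Krt17 was nearly level, at a mean of 1862 CPM against 1708 CPM (0.28), and its call was lost without UEA-1+ replicate 7 (0.22) and when scaled to library totals (0.16).

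Chemokines and cytokines of the medulla rose in most cases, with the interferon-inducible Cxcl10 as the exception. Of 15 listed genes 10 were tested, of which 8 rose, 1 fell and 1 was not called. Over all genes 29.7% were higher and 27.3% lower. The median log2 fold change was 2.34, and 1.44 over the 8 genes still tested without cells holding a myeloid transcript. With no filter 13 of 15 were higher, against 30.7% over all genes. Their sum, which holds Cxcl10, went the other way, at 3466 to 5012 CPM against 4779.9 to 6532.5 CPM, with overlap. Ccl19, a ligand of Ccr7 that draws selected thymocytes into the medulla, was at 292 to 483.1 CPM against 16.2 to 76.8 CPM (log2 fold change 3.38 ± 0.18, edgeR adjusted p = 6.38e-16). Ccl22, a ligand of Ccr4, was at 63.5 to 452.7 CPM around 123 CPM against 0 to 39.2 CPM around 3.69 CPM (5.24 ± 0.43, edgeR adjusted p = 1.16e-11). Tnfrsf11b, which encodes osteoprotegerin, the decoy receptor of the RANK ligand, rose by 4.59. Ccl21a, the other Ccr7 ligand, was below the filter at a mean of 17.04 CPM against 3.21 CPM, a level that is uncertain because near-identical copies exist and reads with several loci were discarded.

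These chemokines were carried by unequal numbers of cells. After thinning, Ccl19 was found in 41.1% of sorted cells and Ccl22 in 11.3%, and the 10 richest cells held 17.7% and 53.9% of their transcripts. For Ccl20, a ligand of Ccr6 that rose by 4.13 with overlapping libraries, they held 64.9%, and without unsorted replicate 15 it stood at 6.40. Ccl22 stood at 5.98 without unsorted replicate 6. Xcl1, which attracts dendritic cells to the medulla, was found in 1.61% of sorted cells and 0 of 1356 unsorted cells, with 81.5 CPM in 1 library and a median of 4.51 CPM. Cxcl9 was at 362.5 to 751 CPM against 112 to 249.8 CPM (log2 fold change 1.73), while its relative Cxcl10 was at 1811 to 2779 CPM against 4384 to 6063 CPM (-1.02 ± 0.08, edgeR adjusted p = 2.75e-12). Neither pair of ranges overlapped, so that 2 ligands of the same receptor, Cxcr3, were displaced in opposite directions.

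Class II antigen presentation was higher after the sort. Of 12 genes tested 9 rose, 1 fell and 2 were not called, against the same shares over all genes as above, with a median log2 fold change of 1.22, and their sum was 36133 to 42709.5 CPM against 16723 to 23949 CPM. H2-Aa, the alpha chain of I-A, was at 9761 to 11105 CPM around 10102 CPM against 3729.6 to 5772 CPM around 4859.9 CPM (log2 fold change 1.25 ± 0.07, edgeR adjusted p = 2e-15). Cd74, the invariant chain, rose by 1.09 and H2-DMb1, a chain of the peptide exchange factor, by 1.46, while its partner H2-DMa fell by 0.25, a call lost without UEA-1+ replicate 3 (-0.22). H2-Oa and H2-Ob, which restrain that exchange factor, rose by 1.43 and 3.23. Ctss, cathepsin S for the cleavage of the invariant chain in the medulla, was at 140.6 to 220.6 CPM against 5.07 to 56.3 CPM (3.88 ± 0.24, edgeR adjusted p = 1.8e-14), opposite to the cortical Ctsl. Ciita, the transactivator of these genes, was at a mean of 95.3 CPM against 93.96 CPM (0.19, edgeR adjusted p = 0.0846).

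The genes of class I presentation were divided between subunits. Of 16 tested, 9 rose, 3 fell and 4 were not called, against 29.7% higher and 27.3% lower over all genes. Their median log2 fold change of 0.54 was 0.049 without cells holding a myeloid transcript. It was 0.22 without cells holding a thymocyte transcript (Ptprc, Cd3e, Cd3d, Cd3g or Lck), with 15 members tested each time. B2m, the light chain of class I, was at 5577 to 8120.0 CPM against 1734 to 3075 CPM (log2 fold change 1.70), and H2-D1 and the class I transactivator Nlrc5 rose by 1.52 and 2.73. The immunoproteasome subunit Psmb8 was at 189.3 to 288 CPM against 29.3 to 78.6 CPM (2.40) and the proteasome activator Psme1 at a median of 361.3 CPM against 51.99 CPM (2.90). The subunit Psmb9, by contrast, was at 79.7 to 149 CPM against 272 to 422.8 CPM (-1.28), and the peptide transporter Tap1 fell by 0.58. Each of these differences came without overlap (largest edgeR adjusted p = 3.23e-07).

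Receptors and mediators of TNF-family signalling, on which mTEC maturation depends, did not move as a block. Of 25 genes 14 rose, 8 fell and 3 were not called, against 29.7% higher and 27.3% lower over all genes. Their median log2 fold change of 0.58 was 0.19 without cells holding a myeloid transcript. On the rising side stood the non-canonical NF-kB subunit Nfkb2, at 509 to 666 CPM against 268.1 to 368 CPM (log2 fold change 1.05 ± 0.07, edgeR adjusted p = 9.3e-14). Its partner Relb rose by 0.64, Rel by 1.40, the adaptor Traf1 by 4.67 and the ubiquitin-like modifier Ubd by 3.50. On the falling side stood the lymphotoxin receptor Ltbr, at 34.6 to 71.3 CPM against 109 to 161 CPM (-1.16), the canonical subunit Nfkb1 (-0.67) and Tnfaip3, an inhibitor of the canonical pathway (-1.03).

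Genes that act in fucosylation, a feature of the glycans that UEA-1 binds, differed in both directions. Of 18 genes of fucosylation 13 were tested, of which 5 rose, 2 fell and 6 were not called. Over all genes 29.7% were higher and 27.3% lower. The list had a median log2 fold change of 0.03, and 0.34 over the 9 still tested without cells holding a thymocyte transcript. Fut1, an alpha-1,2-fucosyltransferase, was at 12.5 to 29.4 CPM against 3.47 to 17.1 CPM, with overlap (log2 fold change 1.29 ± 0.21, edgeR adjusted p = 4.66e-06). Its relatives Fut2 and Sec1 were below the filter, Fut2 at 2.27 to 10.2 CPM against 0 to 5.97 CPM and Sec1 at 6.76 to 28.6 CPM against 0 to 2.83 CPM. Fut8, the enzyme of core fucose, rose by 1.06 and Fut11 fell by 1.03.

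Genes of other tissues were higher where they could be tested. Of 34 listed tissue-restricted antigens 32 were in the files and 12 passed the filter, and all 12 rose, at a median log2 fold change of 4.26 (4.89 without unsorted replicate 6). With no filter 30 of 32 were higher and 0 lower. Over all genes 29.7% were higher with the filter, and 30.7% were higher and 15.2% lower without it. Their sum was 2807 to 4075 CPM in the sorted libraries and 29.3 to 615 CPM in the unsorted ones. Csn2 (chr5:87692619-87699429), the milk protein beta-casein, was at 1174 to 2157 CPM around 1734 CPM against 9.93 to 192.7 CPM around 50.5 CPM (log2 fold change 4.84 ± 0.33, edgeR adjusted p = 1.56e-13).

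Csn2 was found in 67.6% of thinned sorted cells and in 7.01% of unsorted cells (6.53% of those that were not mostly medullary), and its 10 richest cells held 17.4% of it. Other antigens were found in fewer cells. Tff3, a trefoil factor of goblet cells, was found in 7.82% of cells and Reg3g, an antimicrobial lectin of the gut, in 20%. Apoa4, an intestinal apolipoprotein, was found in 12% of cells and S100a8, a calcium-binding protein of neutrophils, in 19.5%. All 4 rose (log2 fold changes 6.50, 3.74, 4.25 and 3.74). Single unsorted libraries lowered some of these values, since without unsorted replicate 5, 7 and 6 in turn Reg3g stood at 4.61, Apoa4 at 4.89 and S100a8 at 4.55. The hormone genes Ins2 and Sst were below the filter, at 0 to 46.6 CPM and 0 to 217.6 CPM in the sorted libraries. All Ins2 transcripts came from 10 or fewer cells. Alb, serum albumin, was also below the filter, at a mean of 1.35 CPM against 4.80 CPM.

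Genes that mark mTEC subsets resembling other tissues were detected at P0, in unequal shares of the sorted cells. Whether those cells form subsets was not tested. Among neuroendocrine and muscle-like genes 8 of 16 passed the filter and all 8 rose, and with no filter 16 of 16 were higher, beside 29.7% and 30.7% over all genes. Insm1, a neuroendocrine transcription factor, was at 119 to 320.3 CPM against 0 to 19.6 CPM (log2 fold change 4.98 ± 0.26, edgeR adjusted p = 4.59e-16) and was found in 25.7% of sorted cells. Syt1, a synaptic calcium sensor, was at 164 to 239.2 CPM against 1.06 to 26.98 CPM (4.47) and was found in 25.5%. Myog, a myogenic factor, was found in 3.91% and rose by 4.67. Ckm, muscle creatine kinase, was found in 3.91%, with 87.8% of its transcripts in 10 cells. The shares of the 16 genes ran from 0.23% (Neurod1) to 25.7% (Insm1), with Snap25 and Chgb at 0.69%.

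Of the 15 cornified-like genes 6 were tested, of which 5 rose, and with no filter 14 were higher. The shares over all genes, here and for tuft-like and microfold genes, were 29.7% and 30.7%. Krtdap, a protein of differentiating keratinocytes, was at 15.04 to 297.8 CPM against 0 to 9.78 CPM (log2 fold change 5.38 ± 0.43, edgeR adjusted p = 5e-12), and Sprr1a, a cornified envelope protein, rose by 2.54. Spink5, a protease inhibitor of that layer, rose by 4.75 with 84.3% of its transcripts in 10 cells. Ivl, which the study used to mark mature mTECs, was found in 0.69% of thinned sorted cells. The richest sorted cell held 74.3% of its transcripts. Of the 16 tuft-like genes 2 were tested, of which Dclk1 rose by 1.28, and 15 were higher with no filter. Trpm5, the ion channel of tuft cells, was at 0 to 37.9 CPM against 0 to 9.91 CPM, and Avil at 3.84 to 69.2 CPM against 0 to 6.09 CPM. Among 18 microfold, enteric and secretory-like genes 4 were tested, 3 of which rose and 1 of which fell, and their sums overlapped between the groups. Their median log2 fold change of 2.99 turned to -1.21 without cells holding a thymocyte transcript and to -0.74 without cells holding a myeloid transcript, where 1 member was tested.

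The 12 largest rises among genes with at least 20 CPM were Rbfox3, Tff3, Spp1, Cyp26a1, Fam25c, Ptgds, C1qb, Klk1b11, Unc93a, Nts, Krt76 and Serpinb3a. Rbfox3, the neuronal splicing factor NeuN, was at 10.8 to 35.8 CPM against 0 to 1.01 CPM. It counted 121 transcripts against 2, a ratio of 170 with a 95% counting interval of 46.1 to 1421. Cyp26a1, which degrades retinoic acid, was at 15.4 to 93.7 CPM against 0 to 2.07 CPM, and Nts, the neuropeptide neurotensin, at 16.3 to 183 CPM against 0 to 6.42 CPM. The log2 fold changes of the 12 ran from 5.69 to 6.51. These transcripts were found in 8.95% (Serpinb3a) to 32.7% (C1qb) of sorted cells without thinning, and 10 cells held from 27.5% (Unc93a) to 80.7% (Serpinb3a) of a gene's sorted transcripts. Klk1b11 and Serpinb3a belong to families of near-identical genes and their levels are uncertain. Without unsorted replicate 5 Spp1 stood at 7.55, without unsorted replicate 12 Serpinb3a at 6.35, and Fam25c at 5.30 without UEA-1+ replicate 2 and at 6.72 without unsorted replicate 14.

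The 12 largest falls were Col8a2, Cxcl12, Tex40, Hmga2, Prss16, Prkcq, Psmb11, Ackr4, Syngr1, Mrln, Fat3 and Glrb. Ackr4, a scavenging receptor for Ccl19, Ccl21 and Ccl25, was at 1.504 to 15.3 CPM against 143.2 to 202.6 CPM (log2 fold change -4.13 ± 0.18, edgeR adjusted p = 1.59e-17). Hmga2, a chromatin protein of fetal and stem cells, was at 0 to 7.95 CPM against 24.2 to 66.2 CPM (-4.33). Prkcq, protein kinase C theta, was at 0 to 4.07 CPM against 23.3 to 52.6 CPM (-4.20). Col8a2, a short-chain collagen, counted 2 transcripts in the sorted libraries against 325, a ratio of 57.8 with a 95% counting interval of 15.9 to 479.1. All 12 separated the groups completely. Without 1 UEA-1+ library Col8a2 stood at -7.24 (replicate 2), Hmga2 at -5.65 (replicate 3) and Fat3 at -4.52 (replicate 4).

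The sorted libraries covered more genes, although the single cells did not. At 300000 molecular barcodes a library, 14699 ± 309.8 genes were detected in the UEA-1+ libraries (SD, n = 7; 14473 to 15361) and 12842 ± 194 in the unsorted ones (SD, n = 16; 12548 to 13114). The difference was 1857 genes (exact two-sided permutation p = 8.16e-06). A cell thinned to 2000 barcodes, however, showed a median of 1205 ± 16.4 genes in a sorted library and 1270.5 ± 12 in an unsorted one, 65.5 genes fewer (same p). Neither measure overlapped between the groups. With 50 cells of 2000 barcodes from each library the difference was still 1277 genes, 11628 against 10351. Cells with a transcript of the myeloid list below were 71.1% of sorted and 20.2% of unsorted cells. They were not left out here, and their part in both measures was not tested. Both measures were chosen after the data had been seen. Their tests took libraries of a title block as independent, and sums by block were not tested for them.

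**Figure D4:**
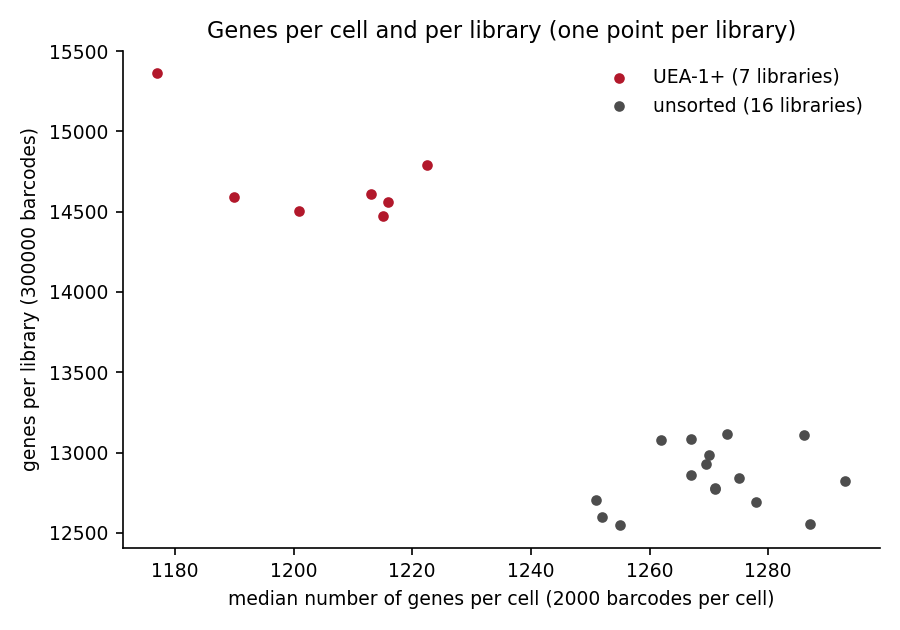
Number of genes detected in a library thinned to 300000 molecular barcodes (vertical axis) against the median number of genes in its cells thinned to 2000 barcodes (horizontal axis), with a point per library for 7 UEA-1+ and 16 unsorted libraries. The sorted libraries lie to the upper left, at 1177 to 1222.5 genes per cell and 14473 to 15361 per library, and the unsorted ones to the lower right, at 1251 to 1293 and 12548 to 13114.

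The same contrast showed in how the genes were spread over cells. Among genes called at least 2-fold higher with 100 to 200 CPM in the sorted libraries, the median of 195 genes was detected in 19.5% of the sorted cells, and the 22 richest cells (5%) held 30.6% of its transcripts. Among 163 genes called at least 2-fold lower with 100 to 200 CPM in the unsorted libraries, the median gene was found in 22.9% of unsorted cells, and the 67 richest cells (5%) held 20.3%. At 20 to 50 CPM the richest 5% of cells held 48.7% of a higher gene's transcripts and 34.6% of a lower gene's, at the median. The part of cells with myeloid transcripts in this spread was not tested.

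Genes of the interferon response had a lower sum after the sort. Of 22 tested, 11 fell, 5 rose and 6 were not called, against 29.7% higher and 27.3% lower over all genes, with a median log2 fold change of -0.55, and the sum was 2209.5 to 3326 CPM against 5271 to 6980.2 CPM. Irf1, which relays interferon gamma, was at 146 to 433 CPM against 1012 to 1468 CPM (log2 fold change -1.97 ± 0.13, edgeR adjusted p = 7.67e-14). The GTPases Irgm1, Iigp1 and Gbp2 fell by 2.14, 2.07 and 1.34. Against this, Oasl1 rose by 1.95 and Irf7, a regulator of type I interferons, by 0.56. Of 18 early response and stress genes 6 were higher, 7 lower and 5 not called, near the shares over all genes. Jun fell by 1.11, while the heat shock proteins Hsph1 and Hspb1 rose by 2.35 and 2.15.

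Of 19 Notch and Wnt genes tested 8 were lower, 6 higher and 5 not called, against 29.7% higher and 27.3% lower over all genes. The Notch ligands Dll1 and Jag2 and the target Hey1 fell by 2.04, 2.16 and 2.30 on the log2 scale, while Rbpj, the transcription factor through which Notch acts, was at 99.7 to 164 CPM against 20.2 to 67.6 CPM (log2 fold change 1.51). Wnt4 was at 67.7 to 146 CPM against 321 to 562.4 CPM (-1.99 ± 0.13, edgeR adjusted p = 4.45e-14) and Wnt10a at 42.1 to 62.5 CPM against 1.35 to 11.4 CPM (3.39 ± 0.20, edgeR adjusted p = 5.06e-15). Among Fgf and other growth factor genes 10 of 17 fell and 5 rose, beside the same shares over all genes. Fgfr2, the receptor of the mesenchymal factor Fgf7, was at 37.6 to 104.5 CPM against 179 to 281.8 CPM (-1.76), Igf1r fell by 1.77, and the TGF-beta receptors Tgfbr2 and Tgfbr3 fell by 2.43 and 3.08.

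Igf2 and Dlk1, imprinted growth genes, rose by 4.30 and 4.46, and without UEA-1+ replicate 1 they stood at 2.69 and 3.15. Igf2 was at 10.2 to 1358 CPM around 43.5 CPM against 5.05 to 36.6 CPM around 13.2 CPM, with the highest value in that replicate. Dlk1 was at 28.4 to 556.8 CPM around 51.2 CPM against 0 to 39.8 CPM around 1.09 CPM, also highest there, and stood at 5.09 without unsorted replicate 12. In each gene 10 cells held most of the transcripts, 84.2% and 72.7%.

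Genes of G2 and mitosis were mostly not called, and for genes of S phase the count depended on the filter. Of 25 genes of G2 and mitosis 6 rose and 19 were not called, against 29.7% higher over all genes, and sums overlapped. Mki67, the proliferation antigen, was at a mean of 109 CPM against 112 CPM (log2 fold change 0.14, edgeR adjusted p = 0.542) and was found in 14% of sorted and 13% of unsorted cells. Of 19 genes of S phase 11 rose, 0 fell and 8 were not called, at a median of 0.58, also against 29.7% higher over all genes and with overlapping sums. With no filter 6 of 22 were higher, against 30.7% over all genes. Among the S phase genes, Uhrf1, which recruits the maintenance methyltransferase, rose by 1.12 and the clamp Pcna by 0.58. Cdk1 and Top2a, of the G2 and mitosis list, rose by 0.88 and 0.63.

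The list named cell cycle inhibitors, here and below, also holds Trp53 and genes of its pathway, such as Mdm2 and Bax. Of 17 members tested 9 rose, 3 fell and 5 were not called, against 29.7% higher and 27.3% lower over all genes. The median log2 fold change of 0.32 was 0.20 with library totals and 0.15 with sums over 4 titles. It was 0.68 without cells holding a thymocyte transcript and 0.51 without cells holding a myeloid transcript. Cdkn1a, which encodes p21, was at 558.6 to 1002 CPM against 274 to 456 CPM (log2 fold change 1.32 ± 0.11, edgeR adjusted p = 2.77e-11). Cdkn2b, which encodes p15, was at 47.7 to 88.2 CPM against 0 to 6.38 CPM (4.38 ± 0.26, edgeR adjusted p = 1.3e-14). Cdkn1c, which encodes p57, rose by 1.86 with overlap, and 10 cells held 60.7% of its transcripts.

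The study drew lists of early and postnatal progenitor genes from clusters of its cells at 4 weeks, so that neither list is independent evidence of a direction. Of 129 early progenitor genes 13 were not tested, 6 were higher, 9 were not called and all others were lower, where 29.7% of all genes were higher and 27.3% lower, at a median log2 fold change of -1.40, and the sum was 8809.6 to 11193 CPM against 21193 to 25627 CPM. Hpgd, which degrades prostaglandins, was at 28.4 to 93.2 CPM against 285.1 to 424 CPM (log2 fold change -2.55). Of 53 postnatal progenitor genes 49 were tested, of which 21 were higher, 19 lower and 9 not called, beside the same shares over all genes, at a median of 0.18, and the sums overlapped. Clca3a1, a gene of that list, was at 96.9 to 246 CPM against 0 to 56.7 CPM (4.18). The median of the postnatal list was 0.059 without UEA-1+ replicate 2, 0.052 with library totals, 0.071 with sums over 4 titles, 0.56 without cells holding a myeloid transcript, and turned to -0.041 among libraries with a second number in the title.

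**Figure D5:**
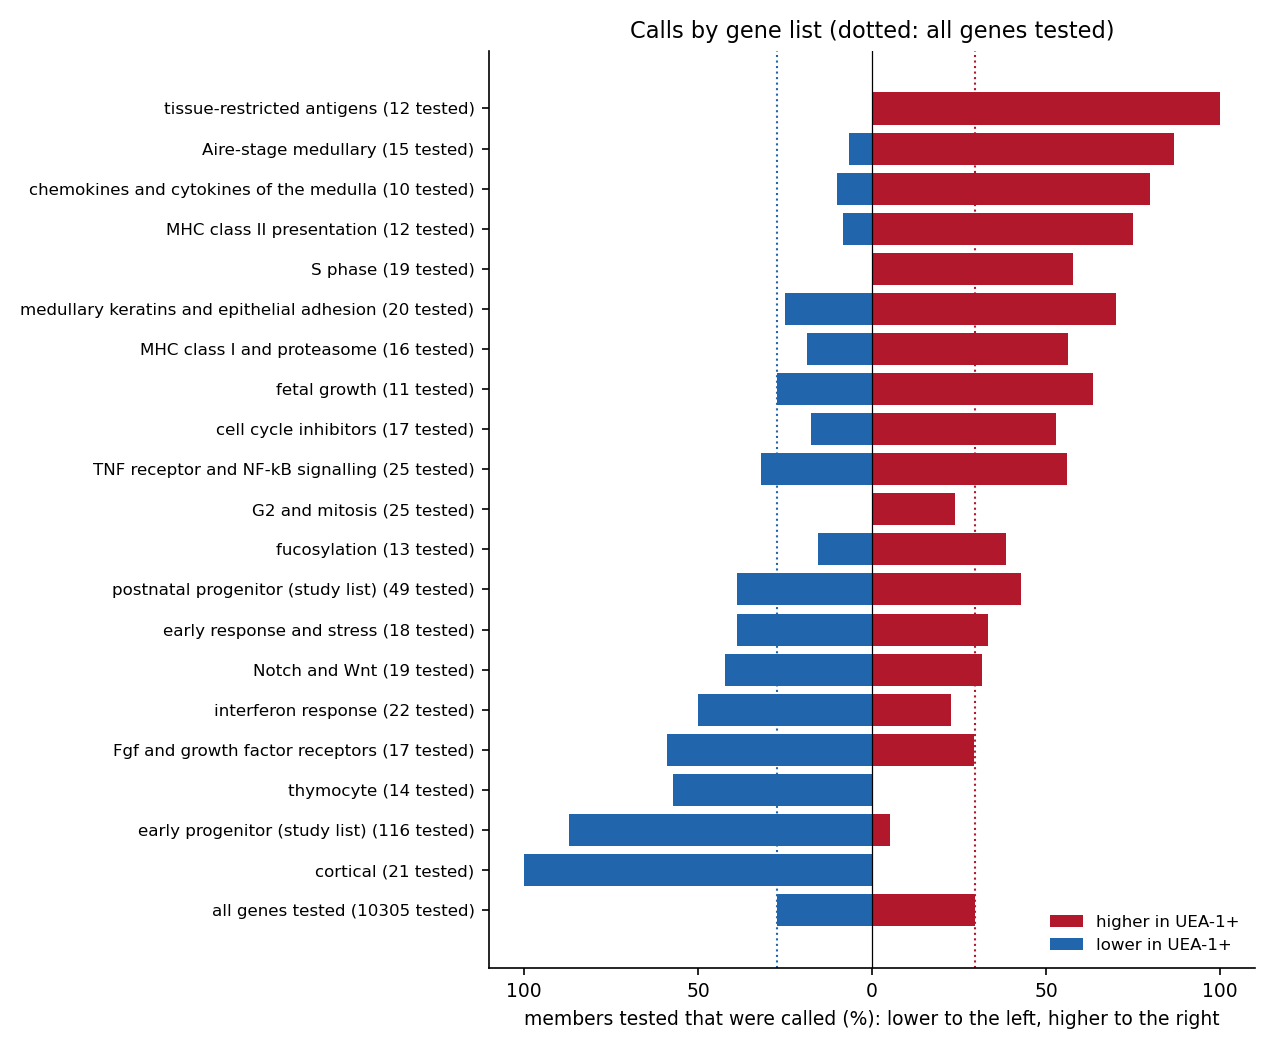
Share of the tested members of 20 gene lists called higher (to the right) or lower (to the left) in UEA-1+ libraries (horizontal axis, %), for lists with at least 10 tested members, with all 10305 genes in the bottom bar and as dotted lines at 29.7% and 27.3%. The cortical list lies wholly on the left (21 of 21) and the 12 tested tissue-restricted antigens wholly on the right, while the postnatal progenitor list is divided.

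Of 14 thymocyte genes tested 8 were lower and 6 not called, against 27.3% lower over all genes. None of the 14 was without overlap, where 12.1% of all genes lay wholly below and 9.69% wholly above. Their sum was 266.8 to 509.9 CPM in the sorted libraries and 288 to 1494 CPM in the unsorted ones, overlapping ranges, with none of the 17 genes at 0 in either group. Rag1 was at 1.40 to 19.6 CPM against 7.34 to 106.7 CPM (log2 fold change -2.22), and Cd8a and Trbc1 fell by 2.31 and 1.57, all with overlap. Ptprc, which encodes the CD45 used to exclude leukocytes, was at a mean of 12.8 CPM against 17.1 CPM (-0.26, edgeR adjusted p = 0.601). Leaving out the cells that held a transcript of Ptprc, Cd3e, Cd3d, Cd3g or Lck kept 324 and 812 cells. Of 8517 genes 2333 were then higher and 2242 lower. The cells kept could still hold transcripts of other listed thymocyte genes.

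Markers of myeloid and dendritic cells were higher after the sort. Of the 14 genes in the files 4 passed the filter and all 4 rose (median log2 fold change 3.09, and 3.74 without unsorted replicate 5), and with no filter 11 of 13 were higher, against 29.7% and 30.7% over all genes. The sum was 131 to 490.3 CPM against 10.9 to 57.98 CPM. Clec9a was at 0 in both groups and Adgre1, the macrophage marker F4/80, at 0 in the unsorted one and at a mean of 14.6 CPM in the sorted one. The members were unequal. C1qb, a chain of complement C1q, was found unthinned in 32.7% of sorted cells and C1qa and C1qc in 4.70% and 6.71%, while Fcer1g was found in 37.4% and its partner Tyrobp in 1.79%. In the unsorted cells these shares were 1.55%, 0.07%, 0.22%, 5.45% and 0.07%.

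At least 1 transcript of the list was held by 71.1% of sorted and 20.2% of unsorted cells, and 10 or more by 38 sorted cells (8.5%) and 2 unsorted cells. Without the cells with 10 or more, Aire stood at a log2 fold change of 4.83, Srgn at 3.81, Ctss at 3.79, Cd52 at 4.35, H2-Aa at 1.13, Spp1 at 7.25 and C1qb at 4.63. Without every cell that held any, which left 129 sorted and 1083 unsorted cells, Aire stood at 5.10, Srgn at 3.65, Ctss at 3.71, Cd52 at 4.31 and H2-Aa at 0.86, each still called (largest edgeR adjusted p = 7.13e-11). The counts were then 1436 higher and 1531 lower genes. Over the members still tested, the median log2 fold change was 1.44 for the medullary chemokines (8 genes) and 0.86 for class II (11). It was 0.05 for class I (15) and 0.19 for TNF-family signalling (24).

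Markers of other lineages were also found, and their counts stand beside 29.7% higher and 27.3% lower over all genes. Of 13 fibroblast genes 4 were tested and 3 rose, and their sum was 360.8 to 570.1 CPM against 123.4 to 377.1 CPM. The erythroid sum was 124.3 to 9593 CPM against 0 to 5752 CPM, with 1 of 4 tested genes risen. Further, of 12 endothelial genes 1 was tested, Flt1, which rose by 5.16, while Cdh5 and Emcn were at 0 in the sorted libraries. Dcn, a proteoglycan of fibroblasts, was at 95.6 to 247 CPM against 4.26 to 254.4 CPM (log2 fold change 2.48), with 1 unsorted library (replicate 2) above every sorted one, without which it stood at 3.23. The haemoglobin gene Hba-a1 was at 20.3 to 5326 CPM around 256 CPM against 0 to 3454 CPM around 27.4 CPM (2.18, edgeR adjusted p = 0.062), and without UEA-1+ replicate 7 it stood at 0.99. Of 8 parathyroid and thyroid genes 2 were tested, 1 lower and 1 not called. The part of these cells in the differences above was not tested beyond the values given.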

How the data were processed

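Single cells in 384-well plates were made into CEL-Seq2 libraries of 96 cells. The authors aligned reads with bwa (0.6.2-r126; bcl2fastq 2.17.1.14 is also in the submitters' processing notes) to mouse ENCODE VM9 gene models, discarded reads with several loci and deposited expected counts per gene and cell, which are transcripts estimated from the number of distinct molecular barcodes. The protocol in the labels depleted cells with CD45 and Ter119 beads, and in the methods the well volume was shared between transcriptome and lineage barcode.

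Transcripts of cells with 3000 or more were summed per library and rounded. Spike-ins, 18 mitochondrial genes and Hprt were left out, and so was 1 UEA-1+ library, which enters no fit. Genes were filtered with filterByExpr (10305 kept of 23854 with a count), scaled by TMM and tested with edgeR's quasi-likelihood test (edgeR 4.0.16, R 4.3.3) between 7 UEA-1+ and 16 unsorted libraries, with Benjamini-Hochberg adjustment over all genes tested at 0.05. Shares per library were compared by an exact two-sided permutation test (scipy 1.17.1, 245157 assignments). Cells were thinned to 2000 molecular barcodes with a fixed seed (7). Doublets were not called. Counting intervals are at 95% and cover counting error only. On simulated counts for 10305 genes the fit recovered 93% of 100 genes changed by 1 on the log2 scale. It recovered 96% of 100 changed by 2, and 6.44% of its calls were false. Only these genes were changed, equally up and down, and libraries were drawn independently. The data held 3064 higher and 2809 lower calls, so that this rate cannot be carried over to them.

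Named genes were Aire, Krt5, Psmb11, Prss16, members of the gene lists and the 12 largest called changes in each direction with at least 20 CPM in the higher group, without Gm and Rik identifiers. The genes and lists were chosen with earlier results of these data known. Alternatives were DESeq2 (1.42.0), other scalings, no filter, other cell minimums, molecular barcodes, mitochondrial genes kept, cells with thymocyte transcripts left out, the form of the title, sums over 4 titles and each library left out in turn. Cells with thymocyte transcripts were those with a transcript of Ptprc, Cd3e, Cd3d, Cd3g or Lck. Both alternatives on myeloid transcripts and both measures of genes detected were chosen after seeing the data. Python 3.11.15, numpy 2.4.6, pandas 2.3.3 and matplotlib 3.10.9 were used. Some members of the lists are counted but not reported here by name.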

Additional observations from a re-analysis of the deposited data

Results flagged for a closer look

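Among values tested over the 7 UEA-1+ libraries, 18 (10.7% of those tested) had 1 library far from the others. Chance alone flags about 1 in 20 values only where they are normally distributed. That was not tested for these untransformed levels, so no excess can be read from the count. Replicate 2 stood apart in 6 of them, with Cd52 at 866.4 CPM (next 568.4), Ckm at 428.7 (next 113.8), Col8a2 at 3.01 (next 0), Rbpj at 163.9 (next 124.3), Trbc1 at 180.5 (next 118.2) and 15361 genes per library (next 14793). Replicate 1 was highest for Igf2 at 1358 CPM (next 404.6), Dlk1 at 556.8 (next 70.7) and Dll4 at 27.03 (next 16.9). Replicate 3 was lowest for Epcam at 257.9 CPM (next 344.5) and highest for Hmga2 at 7.95 (next 1.35) and Hey1 at 55.7 (next 26.7). Replicate 5 was highest for Tnfrsf11b at 296.2 CPM (next 189.2) and Cyp26a1 at 93.7 (next 44.8). Replicate 6 was highest for Xcl1 at 81.5 CPM (next 34.6) and lowest for Fut8 at 29.5 (next 56.3). Replicate 4 was highest for Reg3g at 937.2 CPM (next 276.0), and replicate 7 for Hba-a1 at 5326 CPM (next 1895).

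Data outside the comparison also held listed medullary and cortical transcripts. The UEA-1+ library left out, whose fullest well had 525.9 transcripts, held Csn2 at 9011.7 CPM (59 transcripts) against at most 192.7 CPM in an unsorted library. That level was also above every kept UEA-1+ library. Aire was at 305.4 CPM in the library left out, on 2 transcripts. Krt5 was at 763.5 CPM there against at most 656.3 CPM, but on 5 transcripts, too few to place it above, and Prss16 was at 458 CPM on 3. In the UEA-1+ wells under 3000 transcripts, 225 in number with a median of 977, Aire was at 430.6, Csn2 at 1427.6 and Krt5 at 1191.6 CPM of barcodes. Cortical Prss16 was at 831.8 and Psmb11 at 159.3 in the same wells, above the 422.4 and 115.2 CPM that kept UEA-1+ libraries reached at most. In the 179 such unsorted wells, with a median of 1058, Aire was at 46.2, Krt5 at 676.3, Prss16 at 4798 and Psmb11 at 693.6, and Csn2 made up 41 of 173004 barcodes.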

How the results depend on the processing

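All libraries may come from 1 animal, 1 UEA-1+ library could not be used, and lists with few tested members (1 to 4 for tuft-like, microfold, myeloid, fibroblast, erythroid and parathyroid genes) have unstable medians. No paired analysis was possible because replicate numbers of the groups name only libraries and no shared animal, plate or day. Leaving out each library in turn gave 2857 to 3026 genes higher and 2761 to 2935 lower, shares of 79.9 to 83.1 points for mostly medullary cells and 48.4 to 49.3 points for Aire, and median log2 fold changes of 3.98 to 4.89 for tissue-restricted antigens, 2.95 to 3.74 for myeloid genes, 0.98 to 1.81 for fetal growth, 0.70 to 3.77 for erythroid genes and 0.059 to 0.216 for the postnatal progenitor list. Of 148 named genes called, 3 lost the call without a library (Krt17 and H2-DMa among them) and 13 under any alternative, while Hba-a1 was called under 7. The cause of the moves that follow was not tested. Each median covers only the members still tested under that alternative. Without cells holding a myeloid transcript, for example, these were 8 medullary chemokines and 4 tissue-restricted antigens. Genes higher numbered 7313 with no filter (3616 lower), 6004 in DESeq2 (3053 lower), and 1436 (1531 lower) without cells holding a myeloid transcript. Without those cells the median log2 fold change was 1.44 for medullary chemokines, 0.86 for class II, 0.049 for class I, 0.19 for TNF and NF-kB genes, 3.79 for tissue-restricted antigens, 1.25 for tuft-like, -0.74 (reversed) for microfold, 0.51 for cell cycle inhibitors, 0.21 for fibroblast, -0.999 for early and 0.56 for postnatal progenitor genes and -3.235 for the cortical genes of the cell score, and Ciita turned to -0.06. Without cells holding 10 or more it was 1.11 for class II and 3.71 for tissue-restricted antigens. Without cells holding a thymocyte transcript it was 3.95 for Aire-stage genes, 0.22 for class I, 0.34 for fucosylation and 1.32 for tuft-like genes. It was -1.21 (reversed) for microfold, 0.68 for cell cycle inhibitors and 6.10 for erythroid genes. For thymocyte genes it was 0.75 (reversed), over the 3 of 14 that were still tested. With library totals it was 1.10 for class II, 0.46 for TNF and NF-kB, 0.20 for cell cycle inhibitors and 0.052 for postnatal progenitor genes. Among libraries with a second number in the title it was 0.59 for keratins, 1.11 for class II, 0.22 for fetal growth, -1.34 for parathyroid and -0.041 (reversed) for postnatal progenitor genes. Among those with a single number it was 4.16 for neuroendocrine and muscle-like, -0.43 for Fgf, 3.68 for myeloid, 5.794 for erythroid and 0.85 (reversed) for parathyroid genes, and Mki67 turned to -0.12. With sums over 4 titles it was 1.04 for class II, 0.43 for TNF and NF-kB, 0.15 for cell cycle inhibitors, -1.54 for early and 0.071 for postnatal progenitor genes, and the shares were 80.6 and 48.6 points with exact permutation p = 0.133, the smallest that design allows.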

Other observations

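Fetal growth genes, a list of 16, had 11 tested, of which 7 rose, 3 fell and 1 was not called, against 29.7% higher and 27.3% lower over all genes, with overlapping sums. Their median log2 fold change was 1.64, but 0.22 among libraries with a second number in the title and 0.98 without UEA-1+ replicate 1, the library with the highest Igf2 and Dlk1, both members of the list.

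The series also holds 4 UEA1 libraries of mice at 4 weeks, used with cells of 1500 or more transcripts. Age, sex and protocol differ together from P0, so the levels are set side by side with no test. Aire was at 134.5 to 499.8 CPM there against 599.9 to 790.7 CPM in the UEA-1+ libraries at P0, and Csn2 at 179.6 to 790.0 CPM against 1174.5 to 2157 CPM. Krt5 was at 1090.4 to 2120.4 CPM and Fezf2 at 394.1 to 651.8 CPM, ranges that met those of P0. Trpm5, the tuft cell channel, was at 0 to 173.6 CPM against 0 to 37.9 CPM at P0. Ccl22 was at 0 to 12.2 CPM against 63.5 to 452.7 CPM, and Cxcl10 at 249.7 to 827.1 CPM against 1811 to 2779 CPM. The sum of the MHC class II genes was 17986 to 19854 CPM against 36133 to 42709.5 CPM at P0, and that of the postnatal progenitor genes 12295 to 16290.0 CPM against 5689 to 6706.5 CPM.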
